A study of Mus musculus with 8 samples.

Results

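The genes described here encode the glutathione S-transferases, the UDP-glucuronosyltransferases, the cytosolic sulfotransferases and the aldehyde dehydrogenases of the late fetal mouse small intestine, measured with and without the transcription factor Plagl2. The 85 probe sets are those listed with a single gene symbol of the cytosolic and kappa Gst classes, Ugt1 to Ugt3, Sult or Aldh, leaving out Aldh18a1, a proline synthesis enzyme. They stand for 62 genes, out of 45101 probe sets on the array, of which 34958 carry 1 symbol and represent 18194 genes. By family there were 27 probe sets for 20 Gst genes, 12 for 10 Ugt genes, 15 for 13 Sult genes and 31 for 19 Aldh genes. Members were picked by symbol, but the families were chosen with earlier results of these data known.

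These families handle reactive or poorly soluble small molecules. Glutathione S-transferases attach the tripeptide glutathione to electrophiles, among them products of lipid peroxidation. Most Ugt enzymes attach glucuronic acid to bilirubin, bile acids, steroids and drugs, and sulfotransferases attach sulfate to phenols, steroids and amines. Aldehyde dehydrogenases oxidise aldehydes to acids, a reaction that makes retinoic acid from retinaldehyde and clears fatty and amino acid derived aldehydes. In the intestine these enzymes lie mainly in the epithelium, and many of them are also abundant in liver.

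Small intestines of 4 Plagl2 knockout and 4 wild-type mouse fetuses at 18.5 days post coitum were each hybridised to 1 Affymetrix MOE430 2.0 array. The labels give no strain, sex, litter or treatment, and do not state the part of Plagl2 that was deleted or whether any cell type was spared. The extraction note of every sample, knockouts included, mentions wild-type tissue, whereas titles, source names and the design text give both genotypes. Whole intestine was used, so a difference in signal cannot be told apart from a difference in the share of the cells that hold the RNA.

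Plagl2 signal was near background in every knockout. One of its probe sets gave 3, 6, 5 and 11 in knockouts 1 to 4, against 824, 817, 697 and 796 in wild-types 1 to 4 (log2 fold change -5.18 ± 0.14 SE, adjusted p = 2.42e-09). Median signals were 36 to 42 per array. Among epithelial markers, Epcam (4308 to 4823 in knockouts, 4594 to 5041 in wild-types) and Vil1 (2382 to 4383 in knockouts, 2478 to 2982 in wild-types) were bright on all arrays, and of 10 tested 4 were higher in knockouts (Krt20 by 2.55, Cldn3 by 1.85, Krt19 by 0.70 and Krt8 by 0.52 on the log2 scale) and Krt18 was lower (-1.02). The 10 summed to 25721 to 35075 in knockouts and 22719 to 25839 in wild-types, and their part in the results below was not tested. Xist, transcribed from the inactive X chromosome of females, gave 1828 and 1410 in knockouts 2 and 3 and at most 47 elsewhere. The RNA end ratio, a log2 ratio of 3' over 5' signal averaged over the actin and Gapdh controls, was 0.048 ± 0.035 in knockouts and -0.016 ± 0.029 in wild-types (SD, n = 4 each, exact permutation p = 0.0286, the smallest possible). Hepatocyte markers were uneven: albumin (Alb) gave 656, 4, 32 and 4646 in knockouts 1 to 4, against 15 to 122 in wild-types, the 15 on the list summed to 278 to 9504 in knockouts and 725 to 906 in wild-types, and 0 of the 8 tested passed the threshold. Leukocyte markers summed to 1670 to 2260 in knockouts and 4246 to 5767 in wild-types, and 2 of 8 tested were lower in knockouts, Csf1r (628 to 858 in knockouts, 2874 to 4306 in wild-types) and Adgre1 (67 to 121 in knockouts, 159 to 187 in wild-types). Csf1r alone made up most of each wild-type sum. The others tested did not pass: Ptprc (-0.44), C1qa (-0.42), Cd68 (-0.34), C1qb (-0.30), Tyrobp (-0.01) and Lyz2 (0.28). Pancreas acinar markers summed to 799 to 4803 in knockouts and 886 to 3389 in wild-types, and 0 of 6 tested passed. Mesenchyme and muscle markers summed to 20843 to 33708 in knockouts and 17834 to 27937 in wild-types, and 0 of 12 tested passed. Wild-type 3 had the highest wild-type sum of the latter (27937) and the lowest epithelial sum (22719). The part of these cells in the results below was not tested.

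Of the 62 genes, 45 had a probe set bright enough to be tested, and 18 of these were higher and 3 lower in the knockout at an adjusted p under 0.05. The background over all 12838 genes tested was 15.1% past the threshold, 6.6% higher and 8.5% lower. Among members 40% were higher and 6.67% lower, and their median log2 fold change was 0.36, against 0.03 for all genes. At the level of probe sets, 61 of the 85 were tested, and 25 were higher and 3 lower (background 12% in either direction). Signals of the 4 knockouts and the 4 wild-types did not overlap for any of the 21 genes. These were picked by p on the same arrays, so their lack of overlap adds nothing to the calls. Ugt2b35 and Aldh1a7 had no overlap either and did not pass. Over all genes tested, called or not, 19.9% had no overlap. The other 17 genes were represented by dim probe sets alone and are taken up at the end.

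Wild-type 3 was the highest wild-type array for 11 of the 18 genes higher in the knockout and the lowest for 4. Knockout 4, the array with the most albumin signal, was the lowest knockout for 12 of the 18. Knockout 3, which had Xist signal, was the highest knockout for 12 of the 18. Leaving out wild-type 3, knockout 4 or both, all 21 genes were past the threshold in the same direction. Those arrays often lay nearest the other group, so this is a weak check. With any other single array left out, 18 or 19 of the 21 were past the threshold. Adjusted for Xist 16 of the 21 were, in the 6 arrays lacking Xist 16, and adjusted for the RNA end ratio 15. Both arrays with Xist signal were knockouts, so the 6 arrays hold only knockouts 1 and 4 beside the wild-types. The end ratio was 0.017 to 0.098 in knockouts and -0.055 to 0.007 in wild-types, without overlap. Genotype and these measures cannot be told apart fully, and a call lost in such a fit does not show its source.

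**Figure D1:**
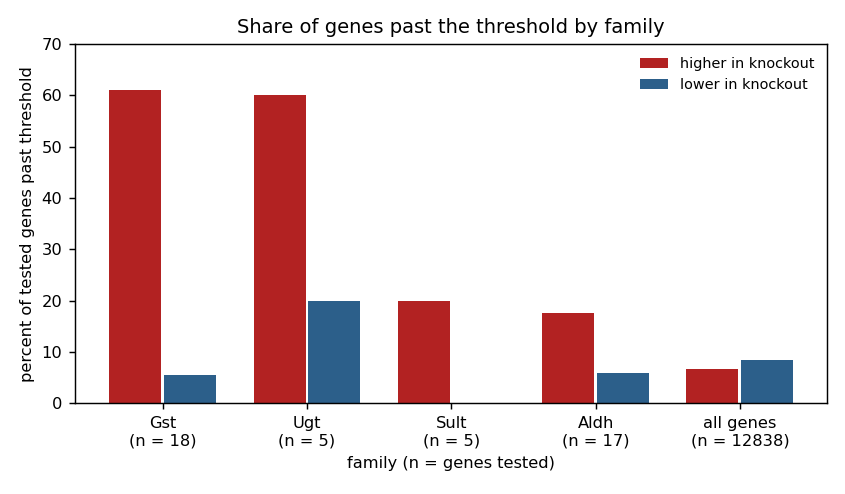
Percent of tested genes past the threshold in each family and over all genes, with bars for genes higher (red) and lower (blue) in the knockout; n is the number of genes tested. The higher share was 61.1% for Gst, 60% for Ugt, 20% for Sult and 17.6% for Aldh genes, against 6.6% of all genes.

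Among the glutathione S-transferases, 11 of 18 tested genes were higher and 1 lower in the knockout, with a median log2 fold change of 0.71, which was 0.46 with no filter on dim probe sets and 0.46 with each gene's probe sets averaged. By class, 3 of 3 alpha genes and 5 of 7 mu genes were higher, along with the single kappa, the zeta and 1 of 2 pi genes tested. In the theta class 0 of 3 were higher and 1 was lower.

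The mu-class genes, which conjugate a broad range of electrophiles, lie side by side in the RefSeq order of genes (assembly GRCm38.p6) as Gstm5, Gstm7, Gstm6, Gstm3, Gstm2, Gstm1 and Gstm4. The 5 inner genes were all higher in the knockout, and the outer ones, Gstm5 and Gstm4, did not pass the threshold. Promoter windows, from 250 bases before to 50 bases after the annotated start, are shown for 4 neighbours at one end of the cluster, of which Gstm5 did not pass and the others were higher, and for Ugt2a3 and Sult2b1, the genes of their families with the largest fold changes. Capitals mark matches on either strand to TGACNNNGC (core of the antioxidant response element), GCGTG (core of the xenobiotic response element), GTTAAT (part of the site of the hepatocyte factor HNF1) and the bipartite PLAG consensus, whose blocks stand 6 to 8 bases apart. Sequences are from RefSeq, build GRCm38.p6, 5' to 3' on the strand of the gene, and where a gene has several windows the one with most matches is given.
Gstm5 (chr3:107895604-107895903, plus strand): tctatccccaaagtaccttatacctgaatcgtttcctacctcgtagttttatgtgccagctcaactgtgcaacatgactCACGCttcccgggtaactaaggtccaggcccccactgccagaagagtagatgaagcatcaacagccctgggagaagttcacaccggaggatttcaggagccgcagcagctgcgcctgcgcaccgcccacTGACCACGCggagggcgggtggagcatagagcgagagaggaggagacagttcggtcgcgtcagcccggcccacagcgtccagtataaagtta
Gstm7 (chr3:107931565-107931864, minus strand): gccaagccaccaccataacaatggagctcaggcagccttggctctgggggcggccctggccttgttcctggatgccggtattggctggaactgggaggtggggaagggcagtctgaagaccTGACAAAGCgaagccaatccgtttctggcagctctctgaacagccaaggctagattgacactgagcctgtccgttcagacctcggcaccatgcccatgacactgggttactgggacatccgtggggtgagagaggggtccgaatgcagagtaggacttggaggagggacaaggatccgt
Gstm6 (chr3:107953417-107953716, minus strand): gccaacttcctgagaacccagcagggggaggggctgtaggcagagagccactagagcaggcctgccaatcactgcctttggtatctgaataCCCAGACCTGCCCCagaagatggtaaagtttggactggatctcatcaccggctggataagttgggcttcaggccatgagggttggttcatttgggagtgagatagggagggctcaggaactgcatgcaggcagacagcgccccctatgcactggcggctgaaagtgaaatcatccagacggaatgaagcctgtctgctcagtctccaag
Gstm3 (chr3:107969125-107969424, minus strand): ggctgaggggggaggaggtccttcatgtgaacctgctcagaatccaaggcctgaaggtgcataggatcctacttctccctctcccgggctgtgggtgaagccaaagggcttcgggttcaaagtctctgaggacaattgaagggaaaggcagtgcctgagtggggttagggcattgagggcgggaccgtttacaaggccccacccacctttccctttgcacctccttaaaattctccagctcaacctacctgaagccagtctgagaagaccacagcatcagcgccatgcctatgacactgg
Ugt2a3 (chr5:87337146-87337445, minus strand): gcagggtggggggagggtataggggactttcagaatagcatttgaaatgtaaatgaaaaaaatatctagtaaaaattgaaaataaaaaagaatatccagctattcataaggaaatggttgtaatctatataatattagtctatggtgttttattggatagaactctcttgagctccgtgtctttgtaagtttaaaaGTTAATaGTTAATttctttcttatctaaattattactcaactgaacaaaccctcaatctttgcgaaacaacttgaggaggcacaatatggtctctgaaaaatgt
Sult2b1 (chr7:45759563-45759862, minus strand): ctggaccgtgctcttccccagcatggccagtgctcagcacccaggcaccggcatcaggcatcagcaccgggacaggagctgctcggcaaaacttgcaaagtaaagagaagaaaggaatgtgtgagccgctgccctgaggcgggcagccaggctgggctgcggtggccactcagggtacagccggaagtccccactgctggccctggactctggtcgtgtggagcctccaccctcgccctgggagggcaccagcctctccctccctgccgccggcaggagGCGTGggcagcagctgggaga

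Gstm5 holds an antioxidant response core that overlaps a xenobiotic response core, with a further xenobiotic response core upstream, and Gstm7 holds an antioxidant response core. The capitals in Gstm6 are a PLAG match, those in Ugt2a3 a pair of GTTAAT matches and those in Sult2b1 a xenobiotic response core, and the Gstm3 window has no match. Windows were found for 51 of the 62 genes (64 windows). TGACNNNGC was present in 7.81% of member windows and 12.4% of all 32851 windows, and GCGTG in 23.4% of member windows and 32.4% of all windows. GTTAAT was present in 9.38% of member windows and 7.1% of all, and the PLAG consensus in 15.6% of member windows and 22.7% of all. The matches are a description of these letters only.

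Gstm3 gave 4502, 4638, 4772 and 3583 in knockouts 1 to 4, against 858, 649, 1242 and 755 in wild-types 1 to 4 (its brighter probe set, of the _s_at kind). The knockouts stood at 4.99 times the wild-type mean, with wild-type 3 the brightest of its group (log2 fold change 2.33 ± 0.17 SE, adjusted p = 4.31e-06). A separate Gstm3 probe set, of the _at kind, averaged 1132 ± 388 in knockouts and 139.5 ± 71.4 in wild-types (SD, n = 4 each, log2 fold change 2.93 ± 0.33 SE).

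Gstm1 gave 1545, 1985, 1848 and 1270 in knockouts, against 335, 306, 636 and 317 in wild-types (an _x_at probe set, log2 fold change 2.06 ± 0.22 SE, adjusted p = 6.55e-05). Wild-type 3 was again the high array of its group, though still below every knockout. The other Gstm1 probe sets, 3 in number, were also higher, at 1.48 to 2.01 on the log2 scale.

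Gstm6 gave 306, 288, 420 and 124 in knockouts, against 55, 37, 47 and 35 in wild-types (log2 fold change 2.24 ± 0.29 SE, adjusted p = 0.000286). Here it was knockout 4 that stood closest to the wild-types. Since the wild-types are dim, the size of this difference depends on the constant of 16 added before taking logs.

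Gstm2 gave 1207, 1248, 1341 and 941 in knockouts, against 560, 508, 589 and 516 in wild-types (log2 fold change 1.09 ± 0.12 SE, adjusted p = 7.42e-05). Gstm7 gave 314, 307, 329 and 266 in knockouts, against 160, 136, 155 and 150 in wild-types (0.94 ± 0.11 SE, adjusted p = 0.00018). For both genes every knockout was above every wild-type. A dimmer Gstm7 probe set averaged 38 ± 7.44 in knockouts and 45.5 ± 5.92 in wild-types and did not pass (-0.19, adjusted p = 0.538), so the probe sets of this gene disagree, and with both averaged Gstm7 had 0.38 (adjusted p = 0.0411).

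At the edges of the cluster, Gstm5 gave 858 to 1026 in knockouts and 1017 to 1179 in wild-types (log2 fold change -0.17, 95% confidence interval -0.37 to 0.03, adjusted p = 0.268). Gstm4 gave 228, 322, 389 and 194 in knockouts, against 193 to 208 in wild-types (0.41 ± 0.18 SE, adjusted p = 0.187), with 2 knockouts well above and 2 near the wild-type values. Mu-class sequences are closely related, and probe sets ending in _s_at or _x_at hold probes that can match more than 1 transcript, so the share of each gene in such a signal is uncertain. Probe sets without such an ending were higher for Gstm1, Gstm2, Gstm3 and Gstm7.

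**Figure D2:**
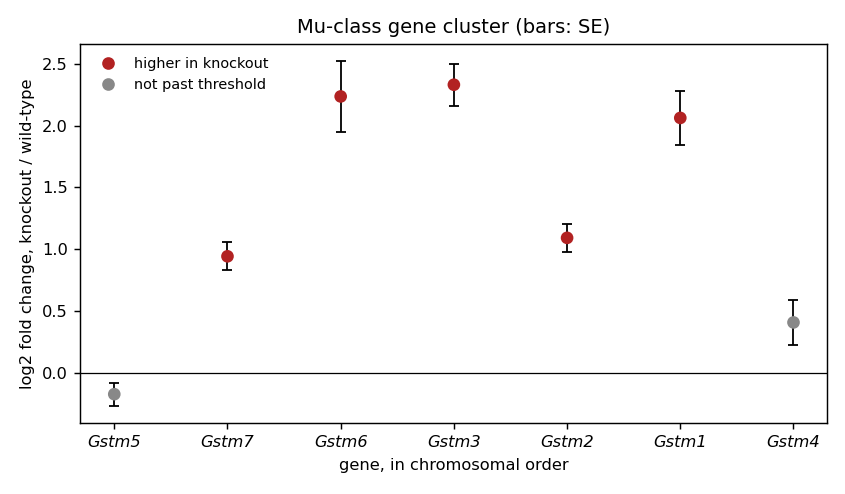
Log2 fold change (knockout over wild-type) of the 7 mu-class genes in chromosomal order, with standard errors; red points are past the threshold and grey points are not. The 5 inner genes lie between 0.94 and 2.33, while Gstm5 and Gstm4 at the ends lie at -0.17 and 0.41; Gstm7 is plotted by its brighter probe set and had 0.38 with both averaged.

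The alpha-class genes were higher too. Gsta4, whose product conjugates the lipid peroxidation aldehyde 4-hydroxynonenal, gave 390, 645, 564 and 350 in knockouts, against 86, 69, 296 and 81 in wild-types (log2 fold change 1.94 ± 0.36 SE, adjusted p = 0.00365). Wild-type 3 was far above the others of its group, and without it the log2 fold change was 2.37 (adjusted p = 1.85e-05). In the 6 arrays lacking Xist it was 1.60 and did not pass (adjusted p = 0.0575).

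Gsta2 gave 1243, 1419, 1094 and 1228 in knockouts, against 487, 548, 865 and 468 in wild-types (log2 fold change 1.09 ± 0.17 SE, adjusted p = 0.00121), wild-type 3 once more being the highest of its group. Alpha-class paralogs close to Gsta2 exist, so this signal may include them. Gsta3 was higher by its brighter probe set, averaging 147 ± 36.8 in knockouts and 66.8 ± 19.3 in wild-types (0.98 ± 0.21 SE, adjusted p = 0.00972), while its dimmer one did not pass (0.39, adjusted p = 0.484). The Gsta3 call ended when adjusted for Xist (adjusted p = 0.0756), in the 6 arrays lacking Xist (0.077) and with its probe sets averaged (0.0928).

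Gstk1, the kappa-class enzyme of mitochondria and peroxisomes, gave 556, 596, 670 and 428 in knockouts, against 213, 226, 188 and 235 in wild-types. The groups stood well apart and wild-type 3 was the lowest of its group here (log2 fold change 1.31 ± 0.14 SE, adjusted p = 7.43e-05). Gstp1, of the pi class, was among the brightest of the tested signals and differed less, at 5446 ± 597 in knockouts and 4038 ± 111 in wild-types (SD, n = 4 each, 0.42 ± 0.08 SE, adjusted p = 0.00492). Its call ended when adjusted for Xist (adjusted p = 0.0592) or for the RNA end ratio (0.0549).

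Gstz1, the maleylacetoacetate isomerase of tyrosine breakdown, averaged 294 ± 39.6 in knockouts and 205.5 ± 22.1 in wild-types (log2 fold change 0.48, adjusted p = 0.0303). Its call was lost with either covariate (0.214 with Xist, 0.161 with the ratio), in the 6 arrays lacking Xist (0.21), and without any 1 of 6 arrays, that is all but knockout 4 and wild-type 3 (0.0606 to 0.0994).

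Gstt3 gave 126, 159, 188 and 159 in knockouts, against 250, 307, 199 and 233 in wild-types (log2 fold change -0.59 ± 0.15 SE, adjusted p = 0.0257). The lowest wild-type, number 3, was only just above the highest knockout. This call ended when adjusted for the RNA end ratio (-0.59, adjusted p = 0.223) and without knockout 1 or 2 or wild-type 1, 2 or 4 (0.0538 to 0.0854). Gstt2, in the same run of genes, averaged 411 ± 62.4 in knockouts and 570 ± 119 in wild-types and passed only without wild-type 3 (-0.45, adjusted p = 0.0855, and 0.0356 without that array).

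Among the other Gst genes, Gstp3 had -0.66 on the log2 scale (adjusted p = 0.0816) and Gstt1 0.44 (adjusted p = 0.172). Gsto1, an omega-class enzyme that reduces dehydroascorbate, was bright on all arrays at 3492 ± 601 in knockouts and 3037 ± 49.7 in wild-types, and did not pass (0.19, 95% confidence interval -0.04 to 0.41, adjusted p = 0.295).

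**Figure D3:**
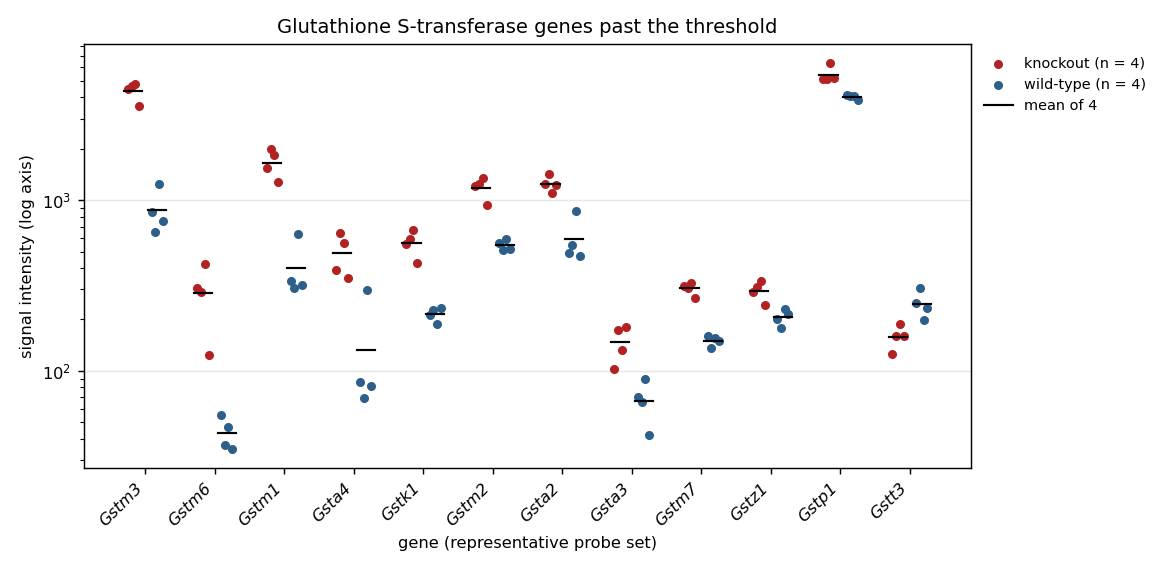
Signal intensity on a log axis of the 12 Gst genes past the threshold, by array, knockouts (red) left of wild-types (blue), with the mean of 4 as a line. Knockout points lie above all wild-type points for each gene but Gstt3, where they lie below, and wild-type 3 is the highest wild-type point for Gstm1 (636) and Gsta4 (296).

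Of 5 Ugt genes tested, 3 were higher and 1 lower. Ugt2a3, an enzyme that in humans glucuronidates bile acids, had the largest difference, giving 455, 487, 701 and 327 in knockouts, against 144, 142, 153 and 140 in wild-types. The wild-types were nearly equal and every knockout lay well above them (3.4 times between means, log2 fold change 1.61 ± 0.18 SE, adjusted p = 0.000126).

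Ugt2b34 gave 3180, 3445, 4022 and 3235 in knockouts, against 1792, 2013, 2371 and 1969 in wild-types (an _s_at probe set, log2 fold change 0.77 ± 0.10 SE, adjusted p = 0.000442), and its _at probe set was higher by 0.89. Ugt2b36 gave 392, 551, 525 and 463 in knockouts, against 310, 202, 386 and 299 in wild-types (0.68 ± 0.18 SE, adjusted p = 0.0252), knockout 1 and wild-type 3 almost touching. The Ugt2b36 value was 1.08 when adjusted for the RNA end ratio, and its call ended when adjusted for Xist (0.19), in the 6 arrays lacking it (0.184) and without knockout 2 or 3 or wild-type 1, 2 or 4 (0.0547 to 0.0854).

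Ugt2b5 was the Ugt gene lower in the knockout. It gave 1021, 1111, 1200 and 916 in knockouts, against 1549, 1538, 1614 and 1577 in wild-types (log2 fold change -0.56 ± 0.09 SE, adjusted p = 0.00188). All knockouts were below all wild-types, and the call ended when adjusted for the RNA end ratio, where the value was -0.54 (adjusted p = 0.066). In RefSeq order Ugt2b5 follows Ugt2b36, and Ugt2a3 is separated from it by Ugt2b37, which was too dim to test. Ugt2b35, next to Ugt2b36, averaged 757 ± 68.7 in knockouts and 571 ± 94.9 in wild-types without overlap (0.41, adjusted p = 0.0561), and passed without wild-type 3 (0.0156).

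The Ugt1 genes, which include the bilirubin enzyme Ugt1a1, share their last exons, and probe sets for that shared part carry several symbols and are not members. They were bright, and none of the 3 tested passed. The brightest of them gave 5631, 5746, 6366 and 5701 in knockouts, against 5897, 5927, 4869 and 5757 in wild-types (log2 fold change 0.07, 95% confidence interval -0.11 to 0.24, adjusted p = 0.666). The other such probe sets had 0.12 and 0.06, with confidence limits no further out than 0.33.

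Among the sulfotransferases, 1 of 5 tested genes was higher, and it had the largest difference of all members. Sult2b1, which sulfates cholesterol and related sterols, gave 391, 411, 769 and 301 in knockouts, against 19, 33, 2 and 29 in wild-types. The wild-types lay at the level of the dimmest probe sets and the knockouts far above (log2 fold change 3.73 ± 0.33 SE, adjusted p = 1.72e-05). That size rests on the added constant, being 4.81 with 1 and 2.59 with 64 in place of 16. The filter on dim probe sets used the mean of all arrays. Sult2b1 was therefore among the 5 genes tested only through its knockout signals, which limits what the count and its rank mean. Markers of squamous epithelium, where Sult2b1 is known to be abundant, were dim throughout: the 7 on the list summed to 92 to 196 in knockouts and 139 to 198 in wild-types, and 0 of the 2 tested passed. The rest were too dim to test, and which cells gave the Sult2b1 signal was not tested.

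The other sulfotransferases did not pass. Sult1b1, which acts on phenols and thyroid hormones, gave 2400, 2348, 3069 and 1912 in knockouts, against 2079, 2347, 1530 and 2458 in wild-types (log2 fold change 0.21, 95% confidence interval -0.14 to 0.56). Sult1d1, an enzyme for catecholamines in mice, averaged 2250 ± 529 in knockouts and 2828 ± 408 in wild-types (-0.34, adjusted p = 0.182), and passed without knockout 3 (-0.49, adjusted p = 0.0221) and in the 6 arrays lacking Xist (-0.56, 0.0358). Sult1a1 had 82.5 ± 15.8 in knockouts and 78 ± 19 in wild-types (0.08, adjusted p = 0.835).

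Of 17 aldehyde dehydrogenase genes tested, 3 were higher and 1 lower, and their median log2 fold change was 0.14. Aldh1a1, which oxidises retinaldehyde to retinoic acid, gave 2246, 1752, 2014 and 1537 in knockouts, against 832, 608, 1196 and 667 in wild-types (1.21 ± 0.19 SE, adjusted p = 0.00119). Wild-type 3 was the closest to the knockouts, and without it the value was 1.40. Its rodent relative and neighbour Aldh1a7 averaged 959 ± 154 in knockouts and 738 ± 85.2 in wild-types without passing (0.36, 95% confidence interval 0.09 to 0.64, adjusted p = 0.0857).

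Aldh3a2, the fatty aldehyde dehydrogenase of the endoplasmic reticulum, gave 758, 781, 949 and 585 in knockouts, against 446, 358, 312 and 433 in wild-types (log2 fold change 0.95 ± 0.15 SE, adjusted p = 0.00157). The groups were clear of each other, and the call ended when adjusted for the RNA end ratio (0.76, adjusted p = 0.097). Aldh2, the mitochondrial enzyme that clears acetaldehyde, gave 1273, 1146, 1488 and 1168 in knockouts, against 959, 960, 828 and 970 in wild-types (0.44 ± 0.10 SE, adjusted p = 0.0159). A second probe set of Aldh2 was also higher (0.53), 2 dim ones did not pass (-0.24 and 0.42), and another was too dim to test. The Aldh2 call ended when adjusted for Xist (0.102) or for the RNA end ratio (0.263), in the 6 arrays lacking Xist (0.0683) and with its probe sets averaged (0.28, adjusted p = 0.136).

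Aldh7a1, an enzyme of lysine breakdown, was the gene of this family that was lower. It gave 321, 262, 280 and 333 in knockouts, against 546, 536, 445 and 538 in wild-types (log2 fold change -0.76 ± 0.11 SE, adjusted p = 0.000958). Wild-type 3 was below the other wild-types and above every knockout. The call rests on a single probe set. Other Aldh7a1 probe sets were too dim to test, averaging 2.5 and 17 in knockouts, against 6.25 and 13.25 in wild-types.

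The remaining aldehyde dehydrogenases did not pass by their brightest probe set. Aldh9a1, which acts on aminoaldehydes including a precursor of carnitine, gave 5386 ± 564 in knockouts and 4731 ± 264 in wild-types by its brighter probe set (0.18, adjusted p = 0.2). The dimmer one was higher at 2284 ± 169 in knockouts and 1709 ± 72.6 in wild-types (0.41 ± 0.08 SE, adjusted p = 0.00523), and the mean of both was called (0.30, adjusted p = 0.0211). Mitochondrial Aldh1b1 averaged 3165 ± 108 in knockouts and 2922 ± 159 in wild-types (0.12, 95% confidence interval -0.04 to 0.27). Aldh1a2, the retinaldehyde dehydrogenase of the gut mesenchyme, had 0.26 (adjusted p = 0.262), and Aldh4a1, of proline breakdown, had -0.60 (adjusted p = 0.192).

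**Figure D4:**
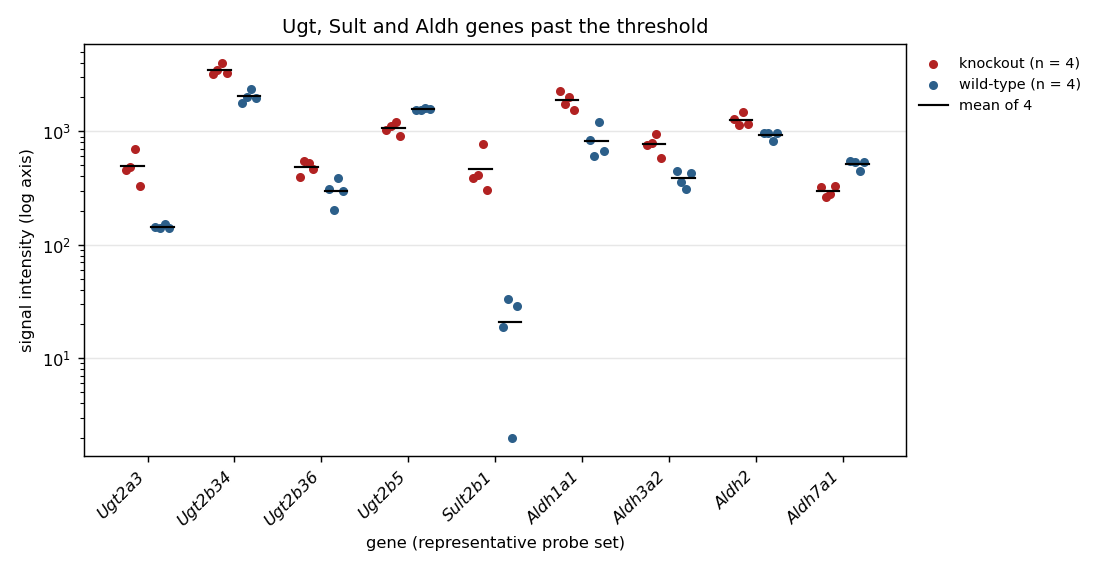
Signal intensity on a log axis of the 4 Ugt, 1 Sult and 4 Aldh genes past the threshold, by array, knockouts (red) left of wild-types (blue), with the mean of 4 as a line. Sult2b1 shows the widest gap, 301 to 769 in knockouts and 2 to 33 in wild-types, and Ugt2b5 and Aldh7a1 are the genes lower in knockouts.

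**Figure D5:**
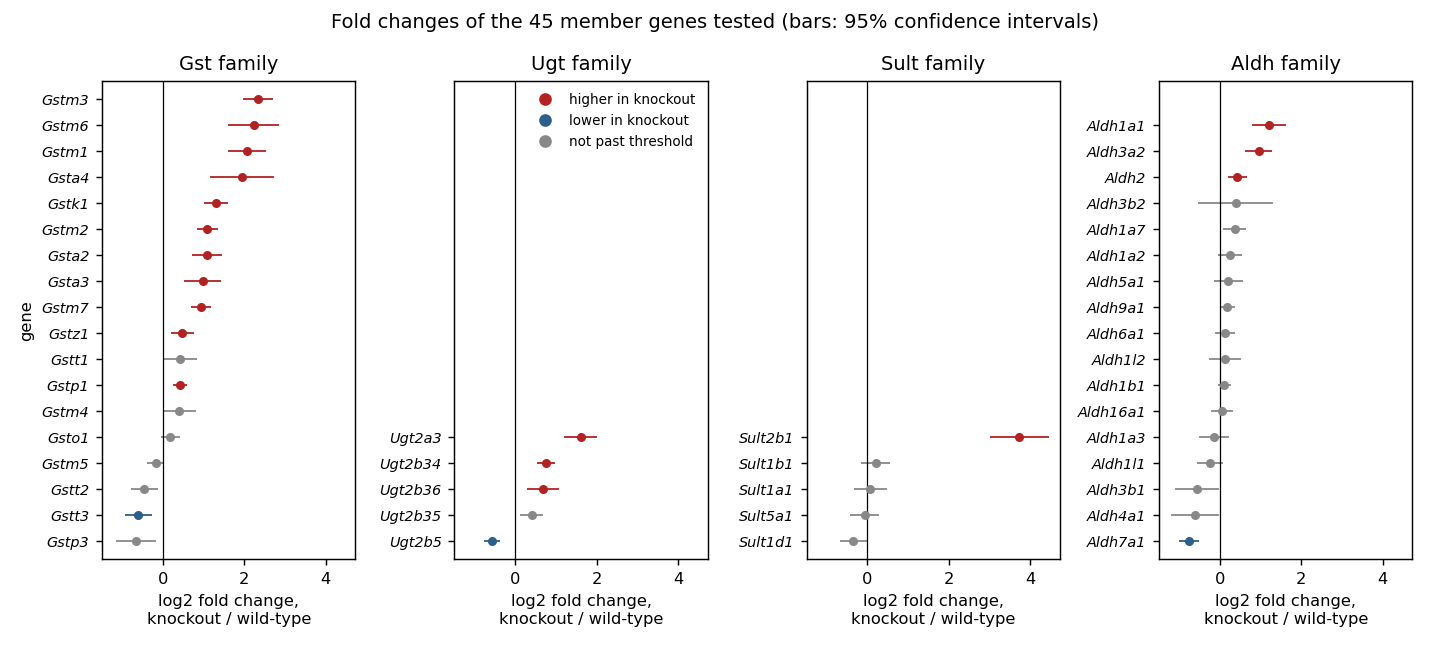
Log2 fold change (knockout over wild-type) with 95% confidence intervals of the 45 member genes tested, by family; red is higher, blue lower and grey not past the threshold. Gst and Ugt genes lie mostly right of 0, while most Aldh intervals cross it.

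Genes that supply or dispose of the conjugates went in both directions. The counts here and in the next paragraphs stand beside 6.6% higher and 8.5% lower among all genes tested. These lists are short, so a few genes past the threshold are not a result about a list. In glutathione synthesis and recycling, 6 of 13 tested genes were higher and 2 lower (median 0.30). Gss, which makes glutathione, fell to 335.5 ± 46.7 in knockouts, against 930 ± 141 in wild-types (SD, n = 4 each, log2 fold change -1.43 ± 0.14 SE, adjusted p = 3.2e-05). Gsr, which regenerates it, was higher (1.05), as were Ggct (1.17) and the brush border peptidases that break down glutathione and its products, Dpep1 (1.94) and Anpep (1.19). The second lower gene, Gclm, is a subunit of the enzyme of the preceding step (-0.51, adjusted p = 0.0497), and its call was lost with no filter, an offset of 1, either covariate, the 6 arrays lacking Xist, averaged probe sets, and without knockout 1, 2 or 4 or wild-type 1 or 2.

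Of the microsomal glutathione transferases and glyoxalases, 4 of 10 were higher and 1 lower. Mgst2 gave 2930, 3012, 3942 and 1706 in knockouts, against 795, 692, 789 and 769 in wild-types (log2 fold change 1.85 ± 0.20 SE, adjusted p = 7.43e-05), with knockout 4 the lowest of its group. Mgst1 (0.52) and Mgst3 (0.61) were higher, as was leukotriene C4 synthase Ltc4s (2.16), the calls of Mgst3 (adjusted p = 0.0874) and Ltc4s (0.0598) ending when adjusted for the RNA end ratio and that of Mgst3 also with its probe sets averaged (0.34, adjusted p = 0.0966). Hpgds, the sigma-class transferase that makes prostaglandin D2, was lower (-1.59). Ltc4s gave signals of 146 to 274 in knockouts and 15 to 61 in wild-types, and had 1.44 with an offset of 64. Hpgds gave 5 to 32 in knockouts and 65 to 108 in wild-types, and had -0.87 with that offset.

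In the list of NRF2 regulators and targets, which respond to electrophiles, 6 of 18 were higher and 2 lower (median 0.28). The factor gene Nfe2l2 gave 1848, 1784, 2305 and 1589 in knockouts, against 1024, 1138, 1257 and 1120 in wild-types (log2 fold change 0.71 ± 0.11 SE, adjusted p = 0.0015). Bach1, a repressor that competes for the same sites, was lower at 720 ± 38.6 in knockouts and 2176 ± 240.0 in wild-types (-1.57 ± 0.10 SE, adjusted p = 1.3e-06). Nqo1 (1.21) and Txnrd1 (1.11) were higher and Hmox1 lower (-1.22), so the list did not move one way.

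Of 10 genes of UDP-glucuronic acid supply and removal, 2 were higher and 1 lower. Ugdh, which makes UDP-glucuronic acid, had 0.43 (adjusted p = 0.0111) and lost its call with either covariate (0.113 with Xist, 0.204 with the ratio) and in the 6 arrays lacking Xist (0.0941), while Pgm2 was higher by 1.09 and Gusb, the lysosomal enzyme that removes glucuronic acid, was lower (326 to 429 in knockouts, 1543 to 2363 in wild-types, -2.37). In sulfate activation, 2 of 11 were higher and 2 lower, and the synthases of the sulfate donor PAPS went in opposite directions. Papss2 gave 1894, 2309, 3423 and 1859 in knockouts, against 458, 486, 456 and 558 in wild-types (2.20 ± 0.17 SE, adjusted p = 6.86e-06). Papss1 gave 860, 811, 906 and 1012 in knockouts, against 2273, 2213, 2051 and 2257 in wild-types (-1.28 ± 0.09 SE, adjusted p = 2.99e-06). In both genes every knockout was clear of every wild-type. The sulfate transporter gene Slc26a1 was lower (-2.33) and Slc26a6 had 0.84, a call that ended without any 1 of 6 arrays, that is all but knockout 4 and wild-type 4 (adjusted p = 0.0509 to 0.0855). It also ended when adjusted for Xist (0.64, adjusted p = 0.192) or for the RNA end ratio (0.53, 0.429) and in the 6 arrays lacking Xist (0.61, 0.137). Slc26a1 gave signals of 1 to 17 in knockouts and 73 to 149 in wild-types, and its value was -4.08 with an offset of 1 and -1.18 with 64.

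Among 13 tested genes of other aldehyde handling, 3 were higher and 0 lower: Adh1 (1.18), Xdh (1.70) and Akr1c14, which gave 977 to 1143 in knockouts and 230 to 312 in wild-types (log2 fold change 1.93 ± 0.11 SE). The call of Xdh ended when adjusted for the RNA end ratio (1.26, adjusted p = 0.185). Of 8 other conjugation enzymes, 1 was higher (As3mt, 0.43, adjusted p = 0.0318, with 0.0575 to 0.101 without knockout 1, 2 or 3 or wild-type 1 or 2) and 1 lower (Gamt, -0.95, adjusted p = 0.000781, and -0.82 with 0.0561 when adjusted for the RNA end ratio). The As3mt call also ended when adjusted for Xist (0.118) or for the RNA end ratio (0.14), and in the 6 arrays lacking Xist (0.117). For efflux transporters of conjugates, 3 of 8 were higher and 2 lower, but only 1 or 2 were higher with any 1 array left out, and Abcg2 was the lower gene with the smallest p (-0.69, adjusted p = 0.00708, and -0.74 with 0.0932 when adjusted for the RNA end ratio). Among 16 regulators, the lipid sensors Ppara (1.27) and Pparg (1.03) were higher and Cdx1 (-1.01), Nr1h4 (-1.09) and Tiparp (-0.42) lower, the calls of Ppara, Pparg and Tiparp ending when adjusted for the RNA end ratio, where Ppara had 0.85 (adjusted p = 0.0984), Pparg 1.32 (0.0679) and Tiparp -0.28 (0.378). The Pparg call also ended when adjusted for Xist (0.116), in the 6 arrays lacking Xist (0.125) and without knockout 2 (0.057), and its value was 0.62 with an offset of 64. The Tiparp call also ended when adjusted for Xist (0.0783), in the 6 arrays lacking Xist (0.0941) and without knockout 1 or 2 or wild-type 1, 2 or 4 (0.0633 to 0.0751). The xenobiotic receptor genes Nr1i2 (-0.13) and Ahr (0.14), chosen after their values were seen, did not pass.

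The 17 genes not tested had only dim probe sets. They were the sulfotransferases Sult1c1, Sult1c2, Sult1e1, Sult2a2, Sult2a8, Sult3a1, Sult4a1 and Sult6b1, the Ugt genes Ugt2b1, Ugt2b37, Ugt2b38, Ugt3a1 and Ugt3a2, the aldehyde dehydrogenases Aldh3a1 and Aldh8a1, and Gsto2 and Gstt4. Over the 24 member probe sets left out, single signals were 0 to 46. Fitted without the filter on dim probe sets, 1 of the 24 passed: Gsto2, with 1, 9, 3 and 4 in knockouts, against 26, 16, 28 and 39 in wild-types (log2 fold change -1.08 ± 0.22 SE, adjusted p = 0.0118). Its groups did not overlap, at very dim signals. Ugt2b1, abundant in mouse liver, gave 15, 1, 1 and 44 in knockouts, against 1 to 20 in wild-types, the highest value being in knockout 4.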

How the data were processed

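Gene expression was measured in 4 knockout and 4 wild-type samples, 1 array each. Per the labels, cRNA was made from oligo-dT primed cDNA and labelled with biotin. The table deposited by the authors holds 1 signal intensity per probe set and array on a linear scale, already scaled to a trimmed mean of about 150.05 (2% trimmed at each end); the labels name no signal algorithm, and no detection calls were used here. Probe sets were named from the platform annotation, in which 932 have several symbols and 9211 none.

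The 64 control probe sets were left out, signals were transformed as log2(signal + 16), and the 40% of probe sets with the lowest mean were dropped, leaving 27022. These were fitted together with limma 3.58.1 in R 4.3.3 (lmFit and trended eBayes) on genotype alone, and p-values were adjusted over all of them (Benjamini-Hochberg, two-sided, threshold 0.05). Each gene takes the values of its brightest tested probe set. Fold changes are on the log2(signal + 16) scale, which understates those of dim genes. Fold changes carry standard errors and signals SDs.

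Named were all members past the threshold, the 3 brightest others of each family, and from each related list up to 5 genes past the threshold; the markers, Gclm, Nr1i2, Ahr, Gstm4, Gstp3, Gstt1, Aldh1a2, Aldh4a1, Gsto2 and Ugt2b1 were added after their values were seen. Members and lists were chosen with earlier results of these data known. No protein table was used here. Whether the fetuses were littermates is not stated in the labels; the p-values reflect variation among these 8 arrays, which may be partly technical, and the number of arrays limits the precision. Alternatives were no filter, quantile normalization, offsets of 1 and 64, a replicate block, covariates, left-out arrays, averaged probe sets and probe sets with several symbols.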

Additional observations from a re-analysis of the deposited data

Results flagged for a closer look

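Single arrays stood apart from the other 3 of their group by Dixon's ratio on the log2 scale, a test that flags about 1 group in 20 by chance. Many groups were examined, so several of the flags below are to be expected by chance. Wild-type 3 was the array in question for Gstm1 (signal 636, against 306 to 335 in the other wild-types), Gsta4 (296, against 69 to 86), Aldh7a1 (445, against 536 to 546), Aldh2 (828, against 959 to 970), Tiparp (455) and Adh1 (4145, against 2477 to 2649). For Gstm1, Gsta4, Aldh7a1, Tiparp and Adh1 it lay towards the knockouts, and for Aldh2 away from them. Knockout 3 stood apart for Gstp1 (6340, against 5112 to 5195) and Hmox1 (76), knockout 4 for Ppara (395), wild-type 4 for Gstp1 (3872, against 4079 to 4106) and wild-type 2 for Aldh1a7 (612, against 762 to 793).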

How the results depend on the processing

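The 18 higher and 3 lower member genes were all past the threshold in the same direction with no filter, quantile normalization (median of all genes 0.02), offsets of 1 and 64, and without wild-type 3, knockout 4 or both. With any other single array left out, 18 or 19 of these 21 genes were past the threshold. Probe sets with several symbols added no call. The same-numbered samples did not deviate together (correlations -0.01 to -0.27). So few pairs cannot show whether the numbers pair the samples. With the replicate block 17 of the 21 remained past the threshold, 455 of all genes were higher and 705 lower, and 0 Gst genes were lower. Gstt3, Gstz1, Ugt2b36 and Aldh2 lost their calls with this block. Among the related genes, Ugdh, Slc26a6, As3mt, Pparg, Tiparp and the efflux transporter genes Abcc1 and Abcc3 lost theirs too. With the Xist covariate 471 of all genes were higher and 2 Gst genes lower; without the arrays with Xist signal 502 of all genes were higher, 5 members lower, 2 of them Gst and 1 Sult. With the 3' to 5' covariate 298 of all genes were higher and 569 lower, 1 member and 0 Gst and 0 Ugt genes were lower, and 1 Aldh gene was higher. Without wild-type 3 and knockout 4 together 5 members were lower, 2 Gst and 2 Aldh; with no filter 2 Gst genes were lower. With each array left out in turn, 534 to 1197 of all genes were higher and 778 to 1322 lower; members numbered 16 to 19 higher and 2 to 6 lower, Gst 10 to 12 higher and 0 to 3 lower, Ugt 2 to 4 higher, Sult 0 to 1 lower and Aldh 3 to 4 higher and 1 to 2 lower. The Gst median was 0.46 with no filter and with averaged probe sets. Signs turned in Sult1b1 (-0.030 with the 3' to 5' covariate), Sult1a1 (-0.32 with that covariate, -0.050 to 0.18 with 1 array left out), the Sult median (-0.14 with that covariate, -0.050 to 0.24 with 1 array left out) and the shared Ugt1 probe sets: the brightest had -0.010 with that covariate and -0.0015 to 0.093 with 1 array left out, and the dimmest -0.054 with Xist, -0.020 with the ratio, -0.057 in arrays lacking Xist and -0.0095 to 0.12 with 1 array left out. The causes were not tested. Signals up to 46 occurred in the member probe sets left out as dim, and the floor of the array was not estimated.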
